A study of Rattus norvegicus with 10 samples.

Results

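The genes described here are named as proteins of the mitochondrial ribosome and were chosen by that name. Every gene of the deposited table was taken whose symbol starts with Mrpl or Mrps. Its mean over the 10 libraries had to be at least 0.1 FPKM. FPKM are fragments scaled by gene length and by library size, a level per gene length. By this rule 75 genes were taken of 14542 genes at or above 0.1 FPKM and 18025 genes listed. The lowest of them, Mrps21l, stood at 0.311 FPKM and the next, Mrpl1, at 13.4 FPKM, and 0 of the 75 listed symbols fell below the limit. A further 3 genes, mrpl9, mrpl11 and mrpl24, are spelled in lower case in the table, were not taken by the rule and are given beside the others. Whole hearts of wild-type Sprague-Dawley rat fetuses were collected on embryonic day 19.5. The HG group (5 libraries) came from dams given streptozotocin, which destroys pancreatic beta cells and so the supply of insulin, and the CON group (5 libraries) from dams given citric acid buffer, and the dams of both groups were 3 months old. The sources do not say which fetuses or litters the libraries came from, nor their sex, so p-values measure the spread between these libraries only. One figure legend of the study speaks of isolated cardiomyocytes and its methods of pooled RNA, whereas the labels name heart tissue and each library has values of its own.

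The mitochondrial ribosome translates the few proteins still encoded by mitochondrial DNA, all of them subunits of the respiratory chain and ATP synthase. Its ribosomal RNA comes from mitochondrial DNA, but its proteins are encoded in the nucleus, made in the cytosol and imported. The small subunit reads the messenger RNA, and the large subunit forms the peptide bonds and hands the new chain to the inner membrane. The heart depends on this machinery for its respiratory capacity, and inherited defects of several of these proteins are known causes of infantile cardiomyopathy.

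Reads on genes, recovered from the steps between FPKM values, numbered 17639895 to 18240006 in CON and 16672876 to 19109844 in HG libraries (two-sided exact permutation test, n = 5 each, p = 0.77). The composition of the libraries differed, with hemoglobin genes at 3.27 ± 0.872% of all FPKM for CON and 2.24 ± 0.264% for HG libraries (SD over 5 libraries per group, p = 0.0317 by the same exact permutation test, and 0.0635 with any of 6 single libraries left out). FPKM are relative to the rest of a library, and the median log2 fold change of all genes tested was 0.09 as deposited and 0.01 after median-of-ratios scaling. Of all genes tested, 11.8% were lower and 28.4% higher in HG (limma, adjusted p below 0.05), the shares to set beside the marker counts that follow. Cardiomyocyte markers were abundant in all libraries, with 8 of 11 lower in HG and 0 at 0 FPKM (sum 26795 to 28129 FPKM in CON, 21331 to 24493 FPKM in HG). Markers of red cells and their precursors were lower for 10 of 14 and higher for 2 of 14 (sum 10582 to 19998 FPKM in CON, 8339 to 11687 FPKM in HG), and the 10 proliferation markers were all higher in HG (sum 374.5 to 416.5 FPKM in CON, 540.3 to 600.1 FPKM in HG). The summed markers also separated for smooth muscle and pericytes (711.8 to 823.2 FPKM in CON, 865.4 to 1096 FPKM in HG). Here 2 of 7 were higher (28.6%) and 2 lower. For epicardium the sums separated as well (29.2 to 34 FPKM in CON, 35 to 42.2 FPKM in HG), with 2 of 6 higher (33.3%) and 1 lower. In bulk hearts fewer cells of a type and less RNA per cell cannot be told apart, and the part of these shifts in the values that follow was not tested.

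The genes of the mitochondrial ribosome formed an evenly and highly expressed group in the fetal heart. Their mean levels had a median of 39.3 FPKM, against 7.26 FPKM for all genes tested, which placed the median member at percentile 87.1. The highest were Mrpl17 (112 FPKM over the 10 libraries), Mrpl12 and Mrpl54. Mrpl17 belongs to the part of the large subunit around the tunnel through which the new protein leaves. It stood at 118, 112, 116, 103 and 111 FPKM in CON and at 118, 118, 113, 111 and 101 FPKM in HG. The groups overlapped almost completely and Mrpl17 was not called (log2 fold change 0.00, 95% confidence interval -0.10 to 0.11, with a sign that turned under other scalings). Mrpl54, a large-subunit protein without a bacterial relative, ranged from 100 to 111 FPKM in CON and 92.9 to 113 FPKM in HG and was likewise not called (log2 fold change -0.04, limma, adjusted p = 0.613).

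Library-to-library variation was small. The coefficient of variation (SD over mean, 5 libraries) had a median of 5.1% over the members in CON and 6.12% in HG, close to the 5.1% and 5.88% of the 4370 genes in the same range of level. It exceeded 10% for 4 members in CON and 7 in HG. Besides the barely detected Mrps21l, Mrpl33 (45.7% in CON, 36.8% in HG) was the most variable in both groups, followed by Mrps35 in CON (21.4%, but 5.37% in HG) and Mrpl43 in HG (18.7%). Mrpl33 was at 11.8, 29.4, 12.3, 14.5 and 13.3 FPKM in CON and at 8.63, 9.08, 13.1, 14.2 and 20.6 FPKM in HG, on 87 to 283 reads. CON 2 was high and HG 5 moderately so, and the groups overlapped (log2 fold change -0.29, SE 0.27, limma, adjusted p = 0.425). Mrpl33, Mrps35, Mrpl43, Mrpl42 and the neighbouring genes described at the end were picked out after their values had been seen.

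Maternal hyperglycemia was accompanied by small decreases in part of this group. Of the 75 genes 21 fell, 3 rose and 51 did not pass the test (limma, adjusted p below 0.05 over all genes). This is 28% lower and 4% higher, where all 14542 genes tested were 11.8% lower and 28.4% higher. The median log2 fold change of the members was -0.07 against 0.09 for all genes, their fold changes ranged from -0.36 to 0.21, and 57 of 75 were below 0. Every HG library lay below every CON library for 10 members (8.12% of all genes tested) and above for 1 member (19.3% of all genes tested). Both the 21 lower genes and the 10 include Mrps36, which carries the family name but is not a protein of the ribosome. With the lower-case spellings counted, 22 of 78 were lower and 4 higher. After median-of-ratios scaling, which moved the median of all genes to 0.01, 36 members were lower and 0 higher, and the 36 included the 21. The difference between the members' median and that of all genes was -0.16 as deposited, -0.17 after median-of-ratios scaling and -0.14 after quantile normalization.

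**Figure D1:**
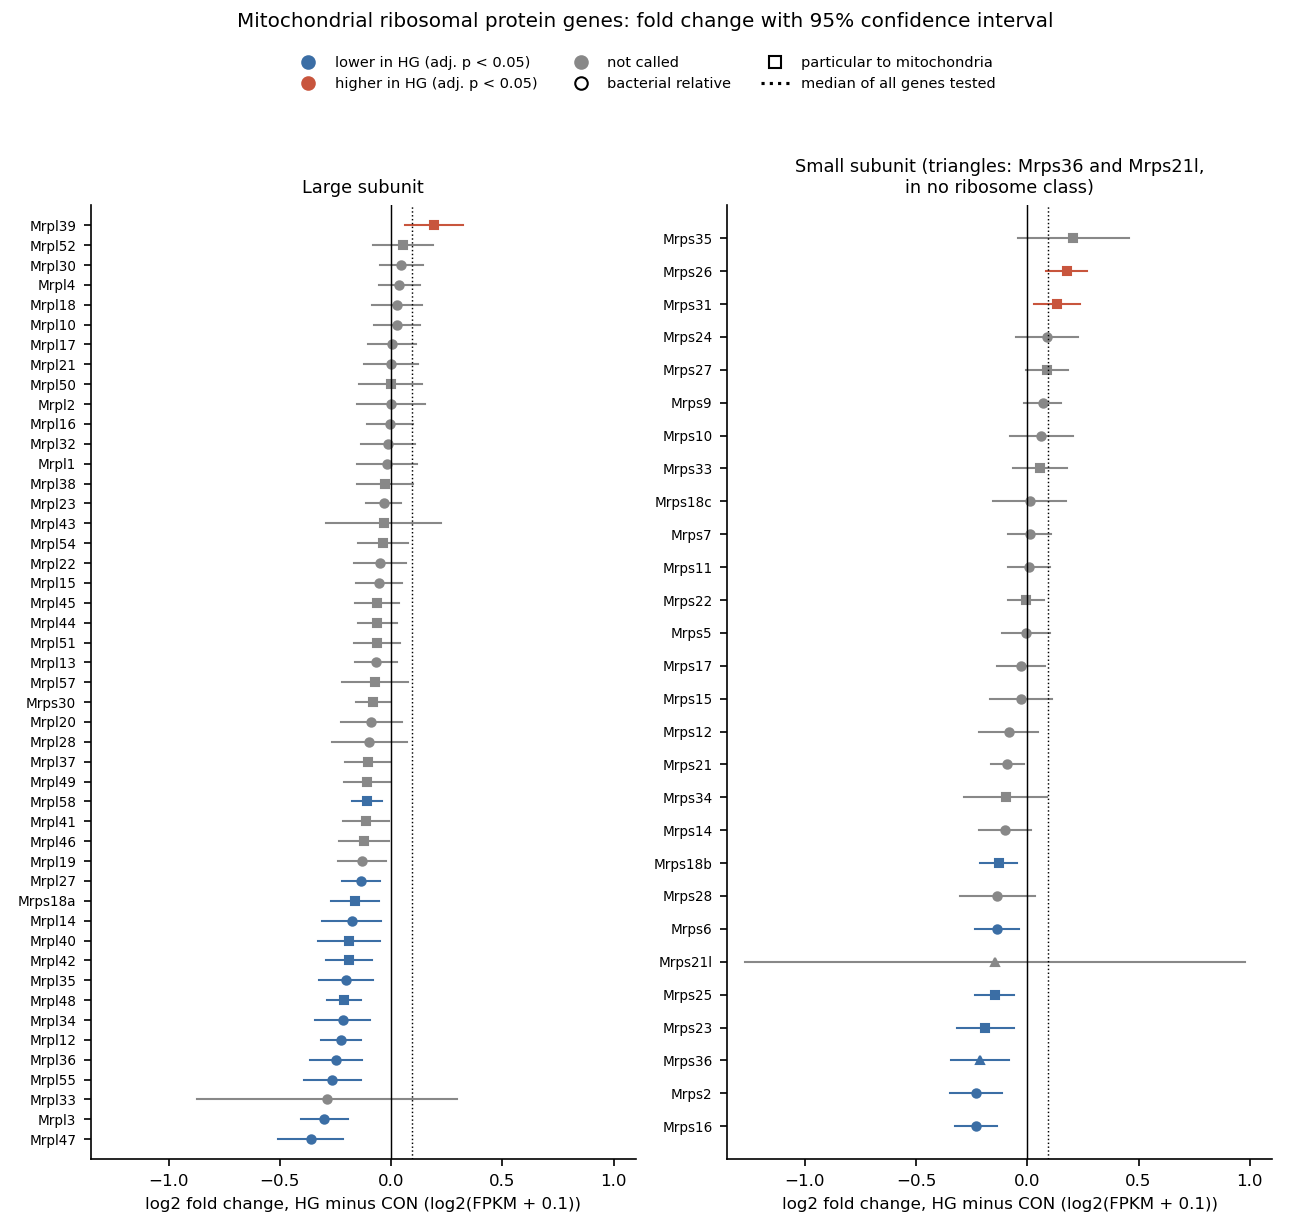
Log2 fold change (HG minus CON, on the scale log2(FPKM + 0.1)) of the 75 genes, with bars for the 95% confidence interval of the limma model, the large subunit on the left and the small subunit on the right. Blue marks the 21 genes called lower and red the 3 called higher, grey the 51 not called, and most points lie to the left of the dotted line, the median of all genes at 0.09.

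Both subunits had lower sums in HG, where the total FPKM of a library was itself 2.65% lower (exact permutation test, n = 5 each, p = 0.0159), and the libraries separated for the large subunit alone. Added over its 47 genes, the large subunit held 2124 to 2182 FPKM in CON and 1960 to 2068 FPKM in HG, with no overlap and a mean 6.02% lower. The 26 small-subunit genes added to 1106 to 1150 FPKM in CON and 1071 to 1138 FPKM in HG, with the groups overlapping through HG 4 and a mean 2.71% lower. All members together came to 3377 ± 48.8 FPKM for CON and 3203 ± 60.7 FPKM for HG (SD over 5 libraries), 5.13% lower without overlap, and as a share of all FPKM to 0.721% to 0.731% in CON and 0.694% to 0.716% in HG. In the large subunit 14 of 47 genes were called lower (29.8%) and 1 higher (2.13%), with a median log2 fold change of -0.07. In the small subunit 6 of 26 were lower (23.1%) and 2 higher (7.69%), with a median of -0.02. Of all genes tested 11.8% were lower and 28.4% higher. The difference between the subunits was not tested.

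**Figure D2:**
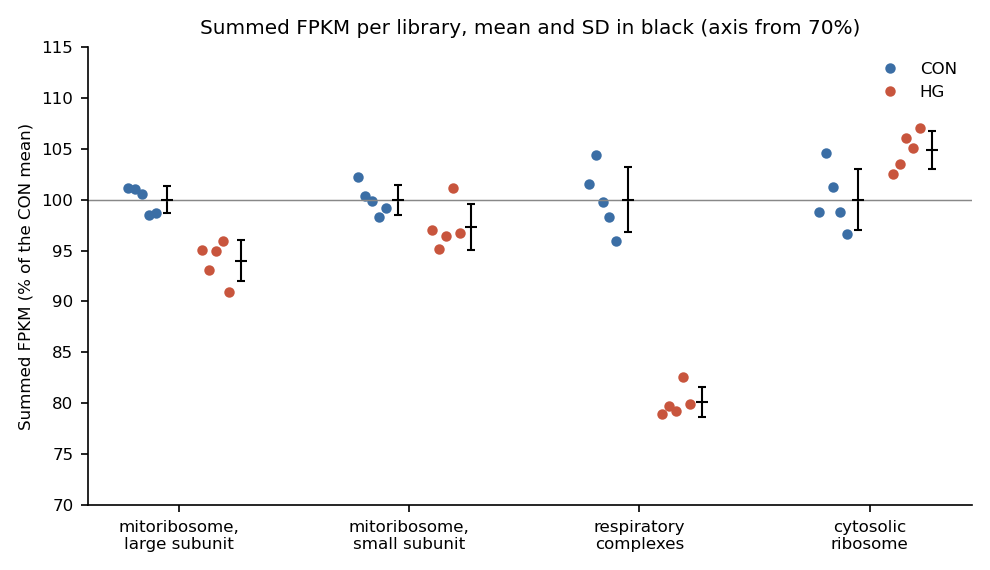
Summed FPKM of 4 gene groups in each library as a percentage of the CON mean, with the axis starting at 70%, points for libraries (5 CON in blue, 5 HG in red) and black bars for mean and SD. The large subunit of the mitochondrial ribosome is 6.02% lower in HG and the small subunit 2.71% lower, between the respiratory complexes (19.9% lower) and the cytosolic ribosome (4.85% higher).

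Among large-subunit proteins with a relative in the bacterial ribosome, 9 of 27 were called lower (33.3%, against 11.8% of all genes) and 0 higher (against 28.4%). Their median log2 fold change was -0.07, and 0 were higher also at an unadjusted p below 0.05 and by voom. Mrpl3, whose human counterpart is a known cause of infantile cardiomyopathy with respiratory chain deficiency, was the most clearly changed member. Its levels were 69.2, 64.4, 64.1, 59.7 and 62.5 FPKM in CON and 54.4, 46.9, 52.7, 53.1 and 52.5 FPKM in HG. All HG libraries lay below all CON libraries, and HG 2 was the lowest of all. The mean fell from 64.0 ± 3.48 to 51.9 ± 2.89 FPKM (SD, n = 5; log2 fold change -0.30, SE 0.049, limma, adjusted p = 0.000486). Mrpl47, a protein near the exit of the peptide tunnel, had the largest called change. It was measured at 14.6, 16.6, 16.6, 17.5 and 15.4 FPKM in CON and 13.3, 11.2, 12.2, 12 and 14.1 FPKM in HG. The lowest CON library stayed just above the highest HG library, and the mean was 22.2% lower (log2 fold change -0.36, SE 0.068, limma, adjusted p = 0.00128).

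Mrpl12, known both as the stalk protein that recruits translation factors and as a partner of the mitochondrial RNA polymerase, was at 121, 118, 119, 113 and 117 FPKM in CON and 107, 98.8, 95.3, 107 and 95.1 FPKM in HG. The groups did not overlap and the mean was 14.4% lower (log2 fold change -0.22, SE 0.042, limma, adjusted p = 0.00124). Mrpl36, a very small protein that joins the large subunit late, was at 39.8, 33.8, 37.0, 33.0 and 34.4 FPKM in CON and 30.3, 31.9, 29.2, 29.8 and 28.4 FPKM in HG. The HG libraries were again all lower, with the CON libraries the more scattered (log2 fold change -0.25, SE 0.054, limma, adjusted p = 0.00321). Mrpl55 had 29.2, 29.8, 31.0, 33.0 and 33.8 FPKM in CON and 26.8, 24.7, 24.4, 29.3 and 25.4 FPKM in HG. Here HG 4 passed the lowest CON library and the other HG libraries lay below all CON libraries (log2 fold change -0.26, SE 0.058, limma, adjusted p = 0.00361). The remaining lower members of this class, Mrpl34, Mrpl35, Mrpl14 and Mrpl27, fell by 0.14 to 0.22 on the log2 scale. The call of Mrpl14 was lost without CON 1, CON 3, CON 5, HG 4 or HG 5 and in the fits with array weights, without trend or without hemoglobin genes (limma, adjusted p 0.0577 to 0.08). Among the lower-case spellings, mrpl11 was at 56.4 to 62.7 FPKM in CON and 50.2 to 53.0 FPKM in HG and was called lower, without overlap (log2 fold change -0.23, limma, adjusted p = 0.000435). In contrast, mrpl9 was at 34.8 to 37.1 FPKM in CON and 38.2 to 40.3 FPKM in HG, higher without overlap (log2 fold change 0.12, limma, adjusted p = 0.0133, but 0.584 after median-of-ratios scaling), and mrpl24 was not called (log2 fold change -0.15, limma, adjusted p = 0.0738) except without CON 4 (0.0441), after median-of-ratios scaling (0.0131) and after quantile normalization (0.0149).

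**Figure D3:**
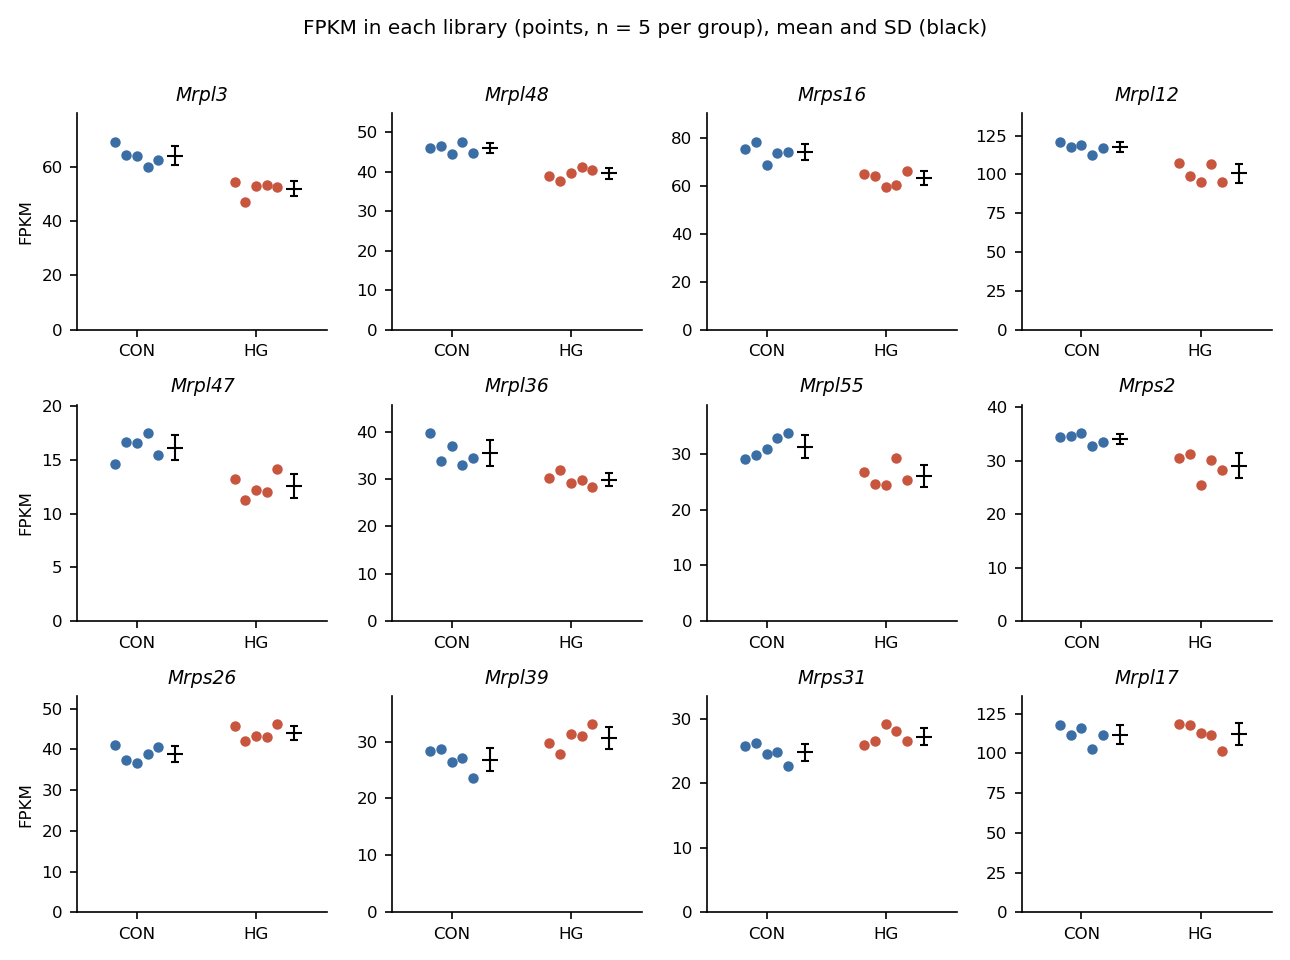
FPKM of 12 genes in each library (points, 5 CON in blue and 5 HG in red, axes from 0) with mean and SD in black. The first 8 genes were called lower in HG, Mrps26, Mrpl39 and Mrps31 were called higher, and Mrpl17, the most abundant member at 112 FPKM, was not called.

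Of the 20 large-subunit proteins particular to mitochondria, 5 were called lower (25%, against 11.8% of all genes) and 1 higher (5%, against 28.4%). Their median log2 fold change was -0.08. Mrpl48 was at 46.1, 46.4, 44.5, 47.7 and 44.8 FPKM in CON and 39.0, 37.6, 39.7, 41.2 and 40.4 FPKM in HG. The 2 groups were tight and well separated, with a mean 13.7% lower (log2 fold change -0.21, SE 0.036, limma, adjusted p = 0.000608). Mrpl58, a peptidyl-tRNA hydrolase built into the large subunit that belongs to the family of rescue factors for stalled ribosomes, was at 69.0 to 73.7 FPKM in CON and 64.1 to 67.4 FPKM in HG. The decrease was only 7.33% but the groups did not overlap (log2 fold change -0.11, SE 0.031, limma, adjusted p = 0.0144). Mrpl42 was called lower without overlap as well (70.4 to 77.6 FPKM in CON, 61.3 to 70.1 FPKM in HG). Mrps18a, which despite its name sits in the large subunit, had all but 1 HG library between 72.7 and 75.5 FPKM, with HG 4 at 86.7 FPKM inside the CON range of 79.9 to 87.7 FPKM (log2 fold change -0.16, limma, adjusted p = 0.0215). Its call was lost without HG 1 (adjusted p = 0.0524) or HG 3 (adjusted p = 0.0552) in limma. Mrpl40 passed the test (13.9 to 15.5 FPKM for CON, 11.1 to 13.9 FPKM for HG, limma, adjusted p = 0.032), but not without CON 1, CON 3, HG 1, HG 3 or HG 5 (limma, adjusted p 0.0619 to 0.0774).

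Mrpl39, a homologue of threonyl-tRNA synthetase that has become a structural protein, went the other way. It was at 28.3, 28.8, 26.5, 27.1 and 23.5 FPKM in CON and 29.8, 27.9, 31.4, 31.0 and 33.0 FPKM in HG. The groups overlapped in HG 2 alone, which lay within the CON range (log2 fold change 0.19, SE 0.060, limma, adjusted p = 0.0234). Other large-subunit members of special role were not called. Mrpl44, whose human counterpart is linked to hypertrophic cardiomyopathy, was at 27.0 to 29.0 FPKM in CON and 25.8 to 28.7 FPKM in HG (log2 fold change -0.06, 95% confidence interval -0.15 to 0.02). Mrpl45, which anchors the ribosome at the inner membrane, was at 38.5 to 45.0 FPKM in CON and 38.0 to 41.3 FPKM in HG (log2 fold change -0.06, 95% confidence interval -0.16 to 0.04). The ranges of both genes overlapped widely. Mrpl41 and Mrps30, both large-subunit proteins also studied in cell death, had log2 fold changes of -0.11 and -0.08 (limma, adjusted p = 0.0786 and 0.0819), and Mrpl41 passed the test without HG 5 (limma, adjusted p = 0.0446). After median-of-ratios scaling Mrpl44, Mrpl45, Mrpl41 and Mrps30 were all called lower (limma, adjusted p = 0.0129, 0.0267, 0.00481 and 0.00416).

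In the small subunit 3 of the 16 members with a bacterial relative were called lower (18.8%, against 11.8% of all genes) and 0 higher (against 28.4%). Their median log2 fold change was -0.03, and 0 were higher also at an unadjusted p below 0.05 and by voom. Mrps16, whose loss in patients impairs assembly of the small subunit, was at 75.5, 78.5, 68.9, 73.8 and 74.3 FPKM in CON and 65.1, 64.1, 59.7, 60.5 and 66.4 FPKM in HG. The groups were separate, with CON 3 the nearest to the HG libraries (14.9% lower, log2 fold change -0.23, SE 0.043, limma, adjusted p = 0.00119). Mrps2 was at 34.5, 34.6, 35.2, 32.7 and 33.5 FPKM in CON and 30.5, 31.2, 25.5, 30.1 and 28.3 FPKM in HG. The CON libraries lay close together and all HG libraries below them, HG 3 the lowest (log2 fold change -0.23, SE 0.053, limma, adjusted p = 0.00464). The third gene called, Mrps6, fell by 0.14 on the log2 scale, and its call was lost without CON 2, CON 4, HG 2, HG 3 or HG 4 and in the fits by voom, without trend or without hemoglobin genes (limma, adjusted p 0.0501 to 0.0696). Mrps12, the protein of the decoding centre, was not called (29.9 to 36.5 FPKM for CON, 28.9 to 34.1 FPKM for HG, log2 fold change -0.08, limma, adjusted p = 0.301), nor was Mrps14 (29.3 to 33.7 FPKM for CON, 27.3 to 32.2 FPKM for HG, log2 fold change -0.10, limma, adjusted p = 0.167). For both genes the HG range reached well into the CON range, and Mrps14 was called lower after median-of-ratios scaling (limma, adjusted p = 0.028).

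Of the 10 small-subunit proteins particular to mitochondria, 3 were lower (30%, against 11.8% of all genes) and 2 higher (20%, against 28.4%). The lower ones were Mrps23, Mrps25 and Mrps18b, and the median log2 fold change of the class was 0.03. Mrps23 missed the threshold without CON 2, HG 1 or HG 2 (limma, adjusted p 0.0527 to 0.0538). With the replicate number as a block, Mrps23 and Mrps18b both missed it (limma, adjusted p = 0.0507 and 0.051). Mrps26 was the clearest increase of all members, at 41.1, 37.5, 36.6, 38.9 and 40.6 FPKM in CON and 45.6, 42.0, 43.2, 43.0 and 46.1 FPKM in HG. Every HG library was above every CON library (13.0% higher, log2 fold change 0.18, SE 0.043, limma, adjusted p = 0.00628). Mrps31 was at 25.7, 26.3, 24.5, 24.8 and 22.7 FPKM in CON and 25.9, 26.5, 29.1, 28.0 and 26.6 FPKM in HG. The ranges overlapped at HG 1, and the increase was 9.74% (log2 fold change 0.13, SE 0.048, limma, adjusted p = 0.0418). Without HG 3 or HG 5, 1 of the 3 higher members, Mrps26, still passed. Mrps31 also missed the threshold without CON 3, CON 4, CON 5 or HG 4 (limma, adjusted p 0.069 to 0.0969). After median-of-ratios scaling 0 of the 3 passed, and after quantile normalization Mrps26 alone. Mrps22, another gene of human mitochondrial cardiomyopathy, was level, at 47.9 to 52.1 FPKM in CON and 46.8 to 51.0 FPKM in HG (log2 fold change -0.01, 95% confidence interval -0.09 to 0.08, a sign that turned in single alternatives). The variable Mrps35, at 28.6 to 47.3 FPKM in CON and 37.9 to 43.6 FPKM in HG, had the highest fold change of all members without being called (log2 fold change 0.21, SE 0.11, limma, adjusted p = 0.173).

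The relatives Mrps18a, Mrps18b and Mrps18c, which share a family name and occupy different places in the ribosome, did not all receive the same call. Mrps18a and Mrps18b were called lower (log2 fold changes -0.16 and -0.13, limma, adjusted p = 0.0215 and 0.0189), with Mrps18b at 77.2 to 83.9 FPKM in CON and 69.4 to 78.6 FPKM in HG. Mrps18c, at 27.4 to 33.5 FPKM in CON and 26.6 to 33.4 FPKM in HG, had a log2 fold change of 0.01 (95% confidence interval -0.15 to 0.18) whose sign turned under both other scalings and in 5 of 10 fits that left out a library. The 3 were not tested against each other. Outside the ribosome, Mrps36 carries the family name but is now known as a subunit of the oxoglutarate dehydrogenase complex of the citric acid cycle. It was at 98.7, 105, 88.1, 88.4 and 90.2 FPKM in CON and 73.0, 78.9, 82.4, 84.2 and 86.9 FPKM in HG. HG 5 came close to the lowest CON library without reaching it (13.9% lower, log2 fold change -0.21, SE 0.060, limma, adjusted p = 0.0132). Mrps21l, named for its likeness to Mrps21, rested on 0 to 7 reads per library, so no difference was detectable at this depth.

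Proteins of the mitochondrial ribosome that do not carry the family name were examined as well. Dap3, a GTP-binding small-subunit protein, Ptcd3, Chchd1, Aurkaip1 and Gadd45gip1 gave 0 calls of 5 in either direction by limma and 0 by voom on recovered reads, and 1 of them, Aurkaip1, had an unadjusted p below 0.05. Their median log2 fold change was 0.04. Dap3 was at 38.7, 35.6, 34.7, 35.8 and 36.9 FPKM in CON and 39.6, 37.6, 37.3, 38.8 and 36.0 FPKM in HG. The ranges overlapped (log2 fold change 0.06, 95% confidence interval -0.03 to 0.15, with a sign that turned after median-of-ratios scaling). Aurkaip1, at 50.3 to 60.4 FPKM in CON and 50.1 to 54.0 FPKM in HG, was called lower when CON 4 was left out (limma, adjusted p = 0.0144), after median-of-ratios scaling (0.0106) and after quantile normalization (0.0204).

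The factors that work with the ribosome showed values of several kinds. Of 13 translation factors 4 were lower (30.8%, against 11.8% of all genes) and 1 higher (7.69%, against 28.4%). Their median log2 fold change was -0.09. Tufm, the elongation factor that brings the aminoacyl-tRNA, was at 158, 152, 156, 159 and 156 FPKM in CON and 136, 143, 135, 140 and 129 FPKM in HG. It was lower in HG without overlap (log2 fold change -0.19, SE 0.034, limma, adjusted p = 0.000855). Taco1, an activator of cytochrome oxidase translation, was at 6.52 to 8.2 FPKM in CON and 5.30 to 6.42 FPKM in HG (log2 fold change -0.36, limma, adjusted p = 0.00294). In contrast Mtfmt, which formylates the initiator methionyl-tRNA, was at 8.73 to 9.87 FPKM in CON and 9.99 to 12.4 FPKM in HG, higher without overlap (log2 fold change 0.30, limma, adjusted p = 0.00255).

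Genes for ribosomal RNA modification and ribosome assembly were called higher for 7 of 27 (25.9%, against 28.4% of all genes) and lower for 2 (7.41%, against 11.8%), with a median log2 fold change of 0.06. These shares were near those of all genes, and after median-of-ratios scaling 2 were higher and 8 lower. Trub2, a pseudouridine synthase of mitochondrial RNA granules, was at 16.0 to 17.5 FPKM in CON and 19.0 to 20.9 FPKM in HG, separate from CON (log2 fold change 0.27, SE 0.042, limma, adjusted p = 0.000325). Gtpbp10, a GTPase of large-subunit assembly, was at 5.44 to 7.29 FPKM in CON and 6.90 to 9.43 FPKM in HG (log2 fold change 0.44, SE 0.096, limma, adjusted p = 0.00335). For Gtpbp10 only HG 1 lay in the CON range. The 2 lower genes were Mpv17l2 (4.90 to 5.53 FPKM for CON, 4.03 to 4.72 FPKM for HG, log2 fold change -0.22) and Mterf4 (log2 fold change -0.21), and Mterf4 missed the threshold in 6 of the 10 fits that left out 1 library (those without CON 1, CON 2, CON 3, CON 5, HG 1 or HG 5; limma, adjusted p 0.0505 to 0.065).

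Of 28 genes of mitochondrial DNA upkeep, transcription and RNA processing, 4 were higher (14.3%, against 28.4% of all genes) and 3 lower (10.7%, against 11.8%), with a median log2 fold change of -0.02. After median-of-ratios scaling 1 was higher and 9 lower, and after quantile normalization 2 and 8. Trmt10c and Hsd17b10 work together with Prorp as the mitochondrial RNase P that frees tRNAs from the primary transcript. Trmt10c rose from 12 ± 0.831 to 15.4 ± 0.418 FPKM (SD, n = 5 each; log2 fold change 0.35, limma, adjusted p = 0.00024). Hsd17b10, which is also a dehydrogenase of isoleucine breakdown, fell from 104 ± 3.65 to 87.2 ± 2.57 FPKM (log2 fold change -0.25, limma, adjusted p = 0.000159), and neither gene's groups overlapped. Tbrg4 was higher (log2 fold change 0.20, limma, adjusted p = 0.0072, but 0.114 after median-of-ratios scaling), and Tfb2m, a transcription factor of mitochondrial DNA, was lower (log2 fold change -0.16, limma, adjusted p = 0.0401) but not in 7 of 10 fits without 1 library (CON 2 to CON 5 and HG 1 to HG 3; limma, adjusted p 0.0543 to 0.0915).

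The list of import and protein-processing genes holds those that bring the ribosomal proteins into the organelle. It also holds others that fold, cut or place proteins inside it. Of the 27 genes in this list 10 were lower (37%, against 11.8% of all genes) and 2 higher (7.41%, against 28.4%). Their median log2 fold change was -0.09, and after median-of-ratios scaling 17 were lower and 0 higher. Grpel1, the nucleotide exchange factor of the import motor, fell from 65.9 ± 1.72 to 52.4 ± 1.95 FPKM (SD, n = 5 each; log2 fold change -0.33, limma, adjusted p = 2.83e-05). Timm23, the channel of the inner membrane, fell from 109 ± 1.81 to 92.7 ± 2.72 FPKM (log2 fold change -0.23, limma, adjusted p = 0.000134). Both were separate between the groups. The outer-membrane receptor Tomm20 rose from 152 ± 3.54 to 169 ± 4.00 FPKM (log2 fold change 0.15, limma, adjusted p = 0.00206), also without overlap, but was not called after median-of-ratios scaling (log2 fold change 0.06, limma, adjusted p = 0.23). The other higher gene, Timm17b (log2 fold change 0.21, limma, adjusted p = 0.0269), missed the threshold without CON 4, CON 5, HG 3 or HG 4 (adjusted p 0.0596 to 0.069 by limma).

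Set beside related gene groups, the mitochondrial ribosome lay between the respiratory chain and the cytosolic ribosome. A set of 86 nuclear genes was matched by the symbols of respiratory complexes and ATP synthase. Most of these complexes also hold subunits made by the mitochondrial ribosome. Of the 86 genes 77 were lower (89.5%, against 11.8% of all genes) and 0 higher (against 28.4%). At an unadjusted p below 0.05, 1 was higher, and by voom 0. Their median log2 fold change was -0.31, and every HG library lay below every CON library for 73 of them (8.12% of all genes tested). The fold changes of this group ranged from -2.05 to 0.25, which takes in every member, from Mrpl47 at -0.36 upwards. Ndufb4 in this group fell from 395 ± 12.1 to 301 ± 9.77 FPKM (SD, n = 5 each, log2 fold change -0.39, limma, adjusted p = 7.79e-06). Cox8b fell the most in this group, from 285 ± 35.5 to 69.8 ± 17.9 FPKM (log2 fold change -2.05, limma, adjusted p = 1.2e-06). For the 73 genes of the cytosolic ribosome 19 were higher (26%, against 28.4% of all genes) and 2 lower (2.74%, against 11.8%), with a median log2 fold change of 0.09 as for all genes, but after median-of-ratios scaling 1 was higher and 4 lower, so that their direction depends on the scaling. Rpl3, a cytosolic protein with the same place in its ribosome as Mrpl3 has in the mitochondrial one, rose from 753 ± 22.0 to 846 ± 20.2 FPKM (log2 fold change 0.17, limma, adjusted p = 0.00227, but 0.146 after median-of-ratios scaling). Rps23 was higher too (log2 fold change 0.19, limma, adjusted p = 0.000752). The 2 lower genes changed more. Rpl30 fell from 487 ± 100 to 215 ± 26.2 FPKM (log2 fold change -1.16, limma, adjusted p = 3.5e-05). Rpl17 fell from 719 ± 90.3 to 519 ± 61.4 FPKM, with overlap (log2 fold change -0.47, limma, adjusted p = 0.00183).

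**Figure D4:**
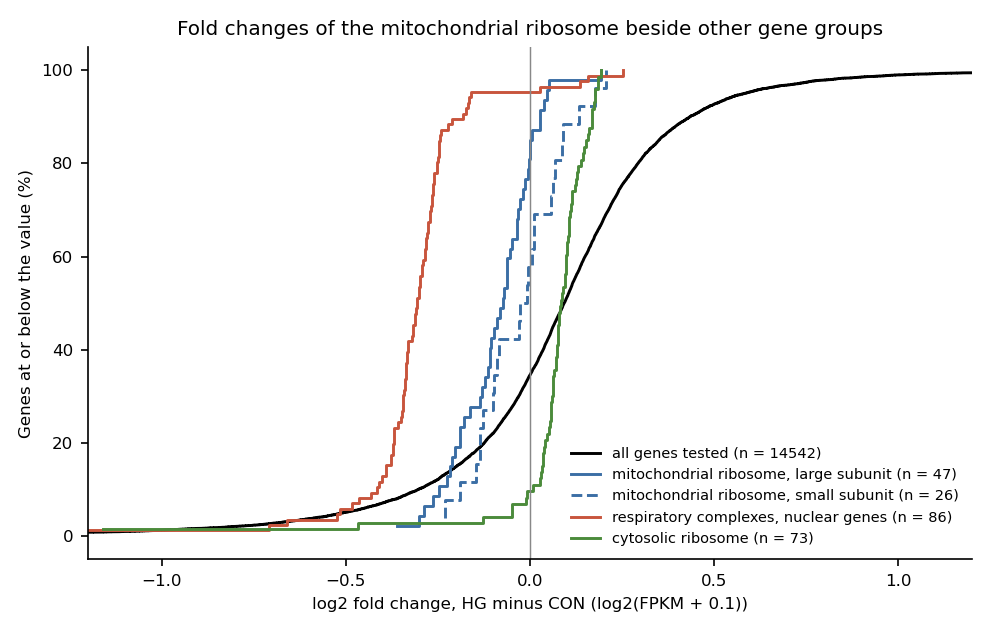
Cumulative share of genes (vertical axis, percent) at or below each log2 fold change (horizontal axis, HG minus CON on the log2(FPKM + 0.1) scale) for 5 gene groups. The curves of the mitochondrial ribosome (median -0.07 for the large and -0.02 for the small subunit) run between that of the respiratory complexes (median -0.31) and that of the cytosolic ribosome (median 0.09), which is close to the median of all genes.

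Nuclear factors known to control mitochondrial genes changed in both directions. Of these 15 genes 6 were higher (40%, against 28.4% of all genes) and 3 lower (20%, against 11.8%). Their median log2 fold change was 0.10, against 0.09 for all genes. After either median-of-ratios scaling or quantile normalization 3 were higher and 4 lower. Nrf1 and Gabpa, which bind the promoters of many respiratory and mitochondrial ribosomal genes, were higher as deposited. Gabpa was at 10.8, 11.8, 11.1, 11.8 and 10.6 FPKM in CON and 13.6, 11.9, 13.9, 13.6 and 14.4 FPKM in HG. HG 2 lay just above the highest CON libraries (log2 fold change 0.26, SE 0.056, limma, adjusted p = 0.00301). Nrf1 was at 3.30 to 3.83 FPKM in CON and 3.83 to 4.21 FPKM in HG, barely separate (log2 fold change 0.19, limma, adjusted p = 0.0326), and its call was lost in 8 of 10 fits without 1 library (all but those without CON 2 or HG 4; limma, adjusted p 0.0501 to 0.0768). Pprc1, a coactivator related to Ppargc1a, was higher (log2 fold change 0.14, limma, adjusted p = 0.0303) but not without CON 1, CON 3, CON 4, HG 1, HG 3 or HG 4 (limma, adjusted p 0.0544 to 0.0719). After median-of-ratios scaling and after quantile normalization neither Nrf1 (limma, adjusted p = 0.243 and 0.334) nor Pprc1 (limma, adjusted p = 0.492 and 0.32) was called.

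Esrra, the estrogen-related receptor that drives respiratory genes in heart muscle, was at 37.5, 37.8, 41.5, 38.2 and 41.2 FPKM in CON and 33.9, 31.4, 29.7, 31.9 and 31.8 FPKM in HG. It was lower in HG without overlap (log2 fold change -0.30, SE 0.045, limma, adjusted p = 0.000269). Ppara, the regulator of fatty acid oxidation, fell from 9.37 ± 1.14 to 4.96 ± 0.518 FPKM (SD, n = 5 each; log2 fold change -0.90, limma, adjusted p = 2.5e-05). Mycn, a driver of growth and of ribosome production in fetal heart muscle, rose from 12.9 ± 0.876 to 20.6 ± 2.55 FPKM (log2 fold change 0.66, limma, adjusted p = 6.6e-05). Sp1 rose from 12.3 ± 0.293 to 14.5 ± 0.799 FPKM without overlap (log2 fold change 0.23, limma, adjusted p = 0.00173). The coactivator Ppargc1a did not pass the test (11.8 to 13.6 FPKM for CON, 10.7 to 14.0 FPKM for HG, log2 fold change -0.10, limma, adjusted p = 0.272) but was called lower after median-of-ratios scaling (limma, adjusted p = 0.0362) and after quantile normalization (limma, adjusted p = 0.0435).

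Promoter sequences were taken from RefSeq (GRCr8), 250 bases before to 50 after each gene's start, and 60 of the 75 genes had one. Short letter patterns known for nuclear control of mitochondrial genes were counted on both strands, as a description of the letters only. The pattern CCGGAAG of ETS factors such as GABP was held by 20 of 60 members (33.3%) and by 16.3% of the 11733 tested genes with a promoter. AAGATGGC, the pattern of YY1, was held by 25% of members and 5.17% of all, and CGCATGCG, the core of the NRF1 site, by 10% and 3.35%. Among the 20 lower members with a promoter these shares were 35.0%, 30% and 5.00%. In the same order, the shares were 28.8%, 20.5% and 9.59% for the respiratory genes and 33.3%, 7.02% and 1.75% for the cytosolic ribosomal genes. The general patterns were nearer to the background, GGGCGG of SP1 in 50% against 59.7%, CCAAT in 43.3% against 37.6%, TATAAA in 11.7% against 7.51% and the E-box CACGTG in 10% against 9.04%. No pattern contains another, and the median G and C content of the windows was 55.8% in members and 60.3% in all.

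The 200 bases before the starts of Mrpl36 and Mrpl48 are shown because both genes were lower without overlap and both stretches hold the ETS and YY1 patterns, printed in capitals as they read on the strand of the gene. They lie at chr1:31795122-31795321, minus strand, and chr1:164351377-164351576, minus strand (GRCr8). In Mrpl36 the YY1 letters stand in reverse complement close to the start, and in Mrpl48 the ETS letters stand in reverse complement and the YY1 letters lie far upstream.
Mrpl36: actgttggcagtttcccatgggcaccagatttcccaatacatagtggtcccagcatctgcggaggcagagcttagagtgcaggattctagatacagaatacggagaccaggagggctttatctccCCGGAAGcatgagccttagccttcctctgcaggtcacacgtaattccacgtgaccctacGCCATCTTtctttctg
Mrpl48: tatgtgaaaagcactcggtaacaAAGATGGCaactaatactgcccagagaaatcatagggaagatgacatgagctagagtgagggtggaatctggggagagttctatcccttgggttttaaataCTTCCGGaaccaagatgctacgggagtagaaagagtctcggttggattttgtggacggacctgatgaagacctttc

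Many of these genes start back to back with another gene. A neighbour on the opposite strand with its start within 1000 bases was found for 17 of 60 members (28.3%), against 1198 of 11723 tested protein-coding genes (10.2%). Mrps11 and Mrpl46, 1 protein of each subunit, are such a pair and count under both, with starts 234 bases apart. Only exact matches of the ETS, YY1 and NRF1 patterns were looked for, so sites with other letters are not covered. The stretches between the starts are all the sequence the 2 genes of a pair have between them. They are shown for 4 pairs picked as examples, and those of the other pairs were not searched on their own. None of these 4 stretches holds CCGGAAG, AAGATGGC or CGCATGCG on either strand. They lie at chr2:117447362-117447604, minus strand (Mrpl47 and Ndufb5), chr10:80092302-80092344, plus strand (Mrpl27 and Eme1), chr4:159677939-159677987, plus strand (Mrpl51 and Ncapd2), and chr1:142117031-142117263, plus strand (Mrps11 and Mrpl46), in GRCr8, each read towards the ribosomal protein gene named first.
Mrpl47 and Ndufb5: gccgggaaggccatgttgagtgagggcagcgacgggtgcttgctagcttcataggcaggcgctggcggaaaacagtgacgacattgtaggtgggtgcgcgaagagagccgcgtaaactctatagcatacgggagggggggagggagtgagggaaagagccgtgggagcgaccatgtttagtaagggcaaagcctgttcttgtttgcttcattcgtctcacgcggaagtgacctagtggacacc
Mrpl27 and Eme1: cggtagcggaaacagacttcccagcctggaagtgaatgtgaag
Mrpl51 and Ncapd2: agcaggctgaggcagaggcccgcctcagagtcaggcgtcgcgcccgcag
Mrps11 and Mrpl46: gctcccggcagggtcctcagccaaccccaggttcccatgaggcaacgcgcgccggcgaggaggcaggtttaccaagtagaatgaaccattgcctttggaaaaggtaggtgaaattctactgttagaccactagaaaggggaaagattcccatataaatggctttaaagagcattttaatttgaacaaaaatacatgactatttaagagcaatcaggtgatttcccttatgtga

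Within these pairs the member and its neighbour received the same call in some cases and different calls in others. Of the 17 neighbours 5 were called higher in HG, 1 lower and 11 neither. The 29.4% called higher was near the 28.4% of all genes tested, of which 11.8% were lower. Mrpl47 (log2 fold change -0.36) and its neighbour Ndufb5, a subunit of respiratory complex I, fell together, Ndufb5 from 315 to 259 FPKM on average (log2 fold change -0.28, limma, adjusted p = 0.00142). Mrpl27 in contrast fell by 0.14 on the log2 scale while Eme1, a subunit of a DNA repair nuclease that starts 44 bases away, rose from 4.08 to 6.4 FPKM (log2 fold change 0.64, limma, adjusted p = 0.000168). Mrpl40 fell by 0.19 while the histone chaperone gene Hira rose (log2 fold change 0.22, limma, adjusted p = 0.00253). Mrpl51, with a log2 fold change of -0.06, was not called, and the condensin gene Ncapd2 beside it rose from 16.7 to 23.6 FPKM (log2 fold change 0.50, limma, adjusted p = 4.25e-05). Mitd1 beside Mrpl30 (log2 fold change 0.50) and Helq beside Mrps18c (log2 fold change 0.22) were the other higher neighbours, next to members with log2 fold changes of 0.05 and 0.01 that were not called. The differences within pairs were not tested.

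**Figure D5:**
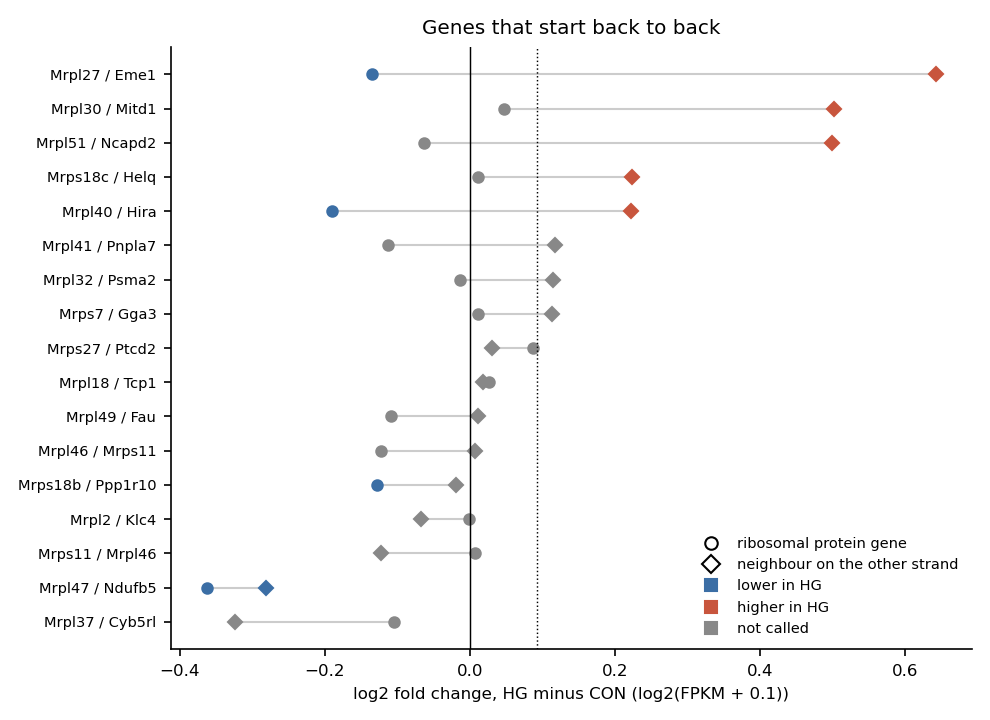
Log2 fold change (HG minus CON) of 17 ribosomal protein genes (circles) and of the gene that starts within 1000 bases on the other strand (diamonds), joined by a line, with blue for lower, red for higher and grey for not called. The dotted line is the median of all genes at 0.09, and 12 of the 17 diamonds lie to the right of their circle, 5 of them called higher, with Eme1 at 0.64 the farthest. Over all 75 members the median was -0.07, so a gene at 0.09 lies to the right of a typical member.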

How the data were processed

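Messenger RNA of fetal rat hearts was measured in 5 CON and 5 HG libraries. The authors deposited FPKM, which are read numbers divided by gene length and library size. The submitters' processing notes name fastp, HISAT2, HTSeq, R 3.2.0 and the build mRatBN7.2, without roles. All per-sample columns were used (0 unused). The study's own model takes counts. FPKM were tested here on a log2(FPKM + 0.1) scale by limma 3.58.1 in R 4.3.3 (trend, no covariate), for the 14542 genes averaging 0.1 FPKM or more, with Benjamini-Hochberg adjustment over all of them. A call is an adjusted p under 0.05. This scale understates changes of low genes. Reads were recovered for 100% of genes (whole within 0.02 reads), giving 16672876 to 19109844 per library, and the model was tested on simulated data. Several of these genes are known to have processed pseudogenes, and reads shared with near-identical copies make their values uncertain.

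The members and gene lists were chosen with earlier results of these data known. Named were the members with the smallest adjusted p, the largest changes, the highest and lowest levels or a known disease or special role, and from each list the 2 genes with the smallest adjusted p in each direction. Alternatives were other pseudocounts, filters and scalings, array weights, a fit without trend, hemoglobin genes left out, a replicate block, voom on recovered reads, and each library left out. Counting the lower-case spellings was chosen after seeing the data. Neighbours and promoters came from RefSeq, GRCr8, a build other than that of the files, and were used for names and sequence only.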

Additional observations from a re-analysis of the deposited data

Results flagged for a closer look

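In groups of 5 libraries, a single library was looked for whose gap to the nearest other library exceeds Dixon's critical value of 0.71 of the group's range. Of 138 groups tested 12 met this, and chance alone gives about 1 in 20. Among ribosomal members these were Mrpl3, with HG 2 low at 46.9 FPKM, Mrps22, with CON 1 high at 52.1 FPKM, and Mrps18a, with CON 2 low at 79.9 FPKM and HG 4 high at 86.7 FPKM. Among the ribosomal proteins of other name, HG 2 was low for Ptcd3 (30.4 FPKM) and HG 5 low for Chchd1 (76.3 FPKM). Among the listed factors, Mpv17l2 was high in CON 2 (5.53 FPKM), Hsd17b10 was high in CON 1 (110 FPKM) and in HG 3 (91.7 FPKM), and Ppara was low in CON 5 (7.40 FPKM). In the cytosolic ribosome HG 5 was high for Rpl30 (261 FPKM) and Rpl17 (626 FPKM). The cause of these single values was not tested.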

How the results depend on the processing

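The 65 named genes gave 1364 values under the alternatives, of which 1243 kept direction and side of the threshold, 75 lost the call, 18 gained it and 28 changed sign. Lower members numbered 18 to 21 with 1 library left out, 18 to 20 of them shared with the 21, and 18 to 36 over the other alternatives, where 17 to 21 were shared. Median-of-ratios scaling made 36 members lower and 0 higher, with medians of -0.16 over all members, -0.16 in the large subunit (27 lower) and -0.11 in the small, and a sum that fell by 10.9%. Under it 2 assembly, 1 transcription, 0 import, 3 regulator and 1 cytosolic ribosomal genes were higher and 8, 9 and 17 of the first 3 lists and 4 cytosolic ribosomal genes lower. Quantile normalization gave 1 higher member, medians of -0.12, -0.13 (large) and -0.0747 (small), 2 assembly, 2 transcription, 1 import, 3 regulator and 48 cytosolic ribosomal genes higher, and 6 assembly and 8 transcription genes lower. Without hemoglobin genes 1 transcription gene was lower, and 4 import and 33 cytosolic ribosomal genes were higher. Voom left 1 assembly gene lower, and array weights gave 1 respiratory gene higher. Of all calls in the table, 70.7% were higher as deposited, 47.1% after median-of-ratios scaling and 53.0% after quantile normalization. Apart from these scalings, the cause of the changes was not tested.

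With 1 library left out, members were higher for 1 to 3, translation factors higher for 1 to 2 (2 without CON 2) and lower for 2 to 5 (2 without CON 4), assembly genes lower for 1 to 3, transcription genes lower for 1 to 4 (1 without CON 3, CON 4, HG 1 or HG 3), import genes higher for 1 to 4 (4 without HG 5) and respiratory genes higher for 0 to 1 (1 without CON 5 or HG 4). Signs turned for genes near 0. Log2 fold changes with 1 library left out ranged from -0.0248 to 0.0408 for Mrpl17, -0.0537 to 0.0154 for Mrpl1, -0.0656 to 0.0061 for Mrpl54, -0.0328 to 0.0586 for Mrps18c, -0.53 to 0.28 for Mrps21l and -0.0199 to 0.0153 for Mrps22, and the difference in reads on genes from -463562 to 145680. After median-of-ratios scaling Mrpl17 was at -0.0863, Mrps18c at -0.0796, Dap3 at -0.0324, Ptcd3 at -0.02 and Gadd45gip1 at -0.0477. After quantile normalization Mrpl17 was at -0.0008, Mrps18c at -0.0416 and Gadd45gip1 at -0.0121. Mrps18c was at -0.006 with array weights, and without hemoglobin genes Mrpl1 was at 0.0045 and Mrps22 at 0.0178.

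Replicate numbers were used as a block in 1 alternative. Deviations of same-numbered CON and HG libraries correlated at 0.108, -0.0749, -0.126, -0.0276 and 0.0144, which was not tested. The labels do not say whether the numbers pair the samples, and these values cannot decide it. With the replicate block 1 member was higher and 18 lower, 17 of them shared with the 21, and 3 small-subunit members and 1 transcription gene were lower. Mrpl40, Mrps18b, Mrps23 and Mrps6 lost the lower call.

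Depth limits Mrps21l, with at most 7 reads, and the spread between libraries limits Mrpl33, Mrpl43 and Mrps35.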
